A study of Homo sapiens with 8 samples.

Results

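The genes described here encode the nuclear-encoded parts of the mitochondrial respiratory chain and ATP synthase, with the complex I assembly factors of the NDUFAF family. They were chosen by symbol alone, as protein-coding genes whose names begin with NDUF, UQCR, ATP5 or COX4 to COX8, together with SDHA to SDHD and CYC1. This gave 99 of the 58302 gene IDs counted. RNA came from Caco-2/15, a colon cancer line that takes on features of small intestinal enterocytes after it reaches confluence. In each line CRISPR-Cas9 had placed a Flag tag on 1 allele of an H2A.Z histone gene, either H2AFZ, which encodes H2A.Z.1 (the line Z1flag), or H2AFV, which encodes H2A.Z.2 (the line Z2flag). All 8 libraries therefore carry a tagged allele, and an untagged line was not analysed here. Whether each line is 1 clone or a mixture of edited cells is not stated in the labels. Each line was sampled subconfluent (Sc) and 7 days after confluence (Pc), with 2 libraries in each of the 4 groups. The titles number the libraries of each group Exp1 and Exp2, called replicates 1 and 2 here, and do not say whether these were separate cultures or whether a number marks 1 experiment across groups. If they were not separate cultures, p-values measure only the spread between these libraries, which may be technical.

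The respiratory chain sits in the inner mitochondrial membrane. Complex I (NADH dehydrogenase) and complex II (succinate dehydrogenase) pass electrons to ubiquinone, complex III passes them to cytochrome c, and complex IV (cytochrome c oxidase) passes them to oxygen. Complexes I, III and IV pump protons, and complex V (ATP synthase) lets the protons flow back to make ATP. Complexes I, III, IV and V also hold subunits made from mitochondrial DNA. All 37 mitochondrial gene IDs stood at 0 in every library, so those subunits were not analysed here.

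The libraries held 17063826 to 40881682 gene counts, of which 0.696% to 1.01% fell on the 99 genes. Reads that overlapped no feature made up 32.0% of the reads listed in Z1flag Sc replicate 1 and 31.4% in Z1flag Pc replicate 1, against 20.6% to 24.5% in the other 6 libraries. Ambiguous reads took 5.39% to 5.69% in the Sc libraries and 6.17% to 7.86% in the Pc libraries. Reads aligned to more than 1 place took 6.59% to 6.89% in Sc and 7.84% to 10.3% in Pc. Of the 91 genes tested below, 52 have pseudogenes named after them, which can take reads from them. The part of these reads in the changes was not tested. Epithelial markers were abundant, with CDH1 at 662 to 713 CPM (counts scaled to a common library size) in Sc and 934 to 1190 CPM in Pc, while CDX1 stayed at or below 0.189 CPM. The summed level of 10 epithelial markers was 12080 to 14270 CPM in Sc and 5131 to 8563 CPM in Pc, a sum led by KRT8 and KRT18. Proliferation markers were lower in Pc too: MKI67 went from 458 to 629 CPM in Sc to 164 to 263 CPM in Pc, and the sum over 5 such genes from 2080 to 2358 CPM to 986 to 1443 CPM. The sum over 7 fibroblast markers, of which COL1A2 was at 0, was 172 to 212 CPM in Sc and 56.5 to 80.3 CPM in Pc. Over 8 leukocyte and endothelial markers the sum was 8.25 to 22.9 CPM and 25.3 to 31.8 CPM, with PTPRC at or below 0.0382 CPM. The sum over 6 muscle markers, with MYH2 and MYOD1 at 0, reached 1.93 CPM at most, and that over 3 adipocyte markers, with LEP at 0, 1.08 CPM. These marker sums move with the state of the cells, and their part in the results below was not tested. In bulk RNA, fewer cells of a type and less RNA per cell cannot be told apart.

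Of the 99 genes, 91 passed the filter on low counts and were tested among 18240 genes. The 4 genes COX4I2, COX6A2, COX7A1 and the read-through gene NDUFC2-KCTD14 had no count in any library, while NDUFA4L2 had 21 counts in all, ATP5MF-PTCD1 had 5, COX7B2 had 2 and COX8C had 1. Log2 fold changes below are Pc over Sc, and adjusted p-values come from edgeR's quasi-likelihood test with Benjamini-Hochberg adjustment over all 18240 genes, called at 0.05. Within Z1flag, 25 of the 91 genes tested fell and 5 rose, where 40.5% of all genes were called, 19.1% as lower and 21.3% as higher. Within Z2flag, 25 fell and 2 rose, where 37.6% of all genes were called, 19.4% as lower and 18.3% as higher. In the mean of both lines 35 fell and 5 rose, which is 44.0% of the 91 against 55.4% called among all genes. Split by direction, 38.5% of the 91 fell against 27.5% of all genes, while 5 of 91 rose where the background was 27.8%. The share called lower was thus above the background and the share called higher below it, and no test of these differences was made. Among protein-coding genes alone, which all 91 are, 59.8% were called and 32.4% fell, closer to the 38.5% of the 91. The rises include COX6B2, which passed the filter only through the Pc libraries and so had to differ. Without it 4 of 90 genes rose in Z1flag, 1 in Z2flag and 4 in the mean of both lines. The same 21 genes fell in both lines, 4 more fell in Z1flag alone and 4 in Z2flag alone, though no difference between the lines passed its own test. Of 13184 protein-coding genes tested, 2312 fell in both lines, 793 in Z1flag alone and 695 in Z2flag alone. Falls shared by the lines were thus common among all protein-coding genes.

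The typical change was small, and scaling moved its level: upper-quartile scaling put the median of all genes at 0.18 in the mean of both lines and left the median of the 91 genes below it by a similar amount. A filter of at least 5 CPM in 2 libraries narrowed the difference between the 2 medians, from -0.27 to -0.13 in Z1flag, from -0.29 to -0.19 in Z2flag and from -0.28 to -0.17 in the mean of both lines. The median log2 fold change of the 91 genes was -0.23 in Z1flag and -0.33 in Z2flag, beside 0.04 and -0.05 for all genes tested. In the mean of both lines it was -0.29, against -0.01 for all genes and -0.09 for protein-coding genes. Most of these genes are short, and protein-coding genes with no more than 4048 bases of exon, the upper quartile of the 91, had a median of -0.02. Between the states the 4 Pc libraries lay wholly below the 4 Sc libraries for 35 genes and wholly above for 6, with a background of 26.1% and 25.1% of all genes. In both lines 61 genes had values below 0, 18 had values above 0 and 12 differed in sign.

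**Figure D1:**
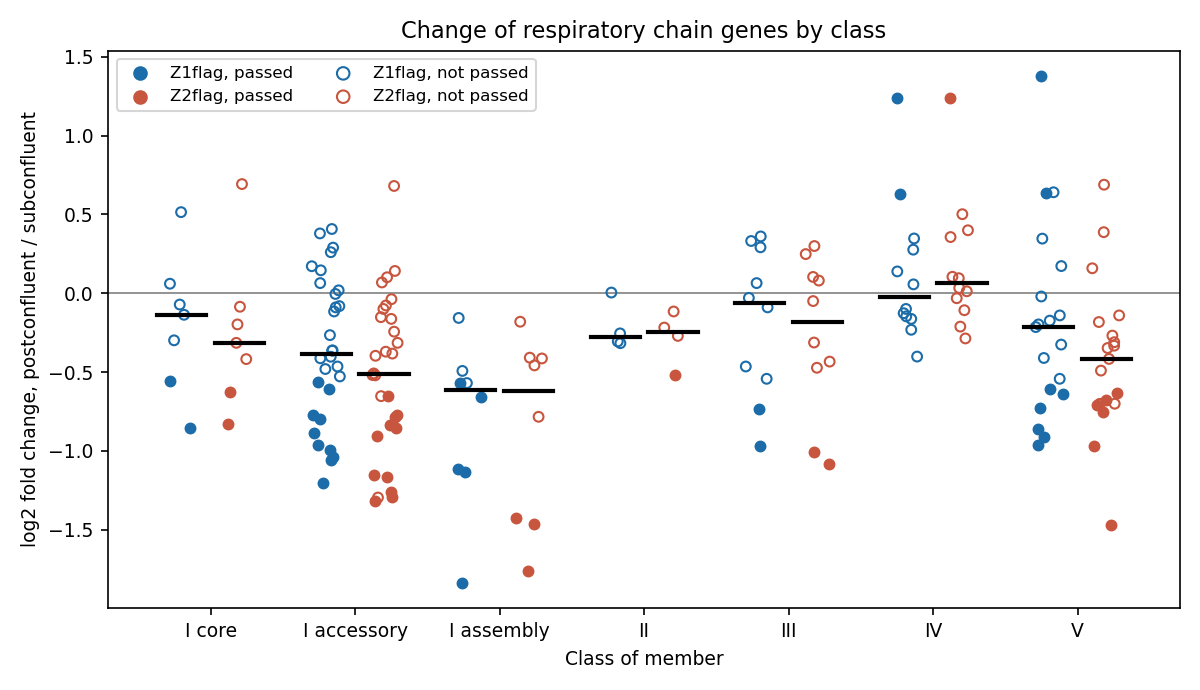
Log2 fold change (Pc over Sc) of each tested gene by class, in Z1flag (blue) and Z2flag (red); filled points passed the test at an adjusted p of 0.05, open points did not, and black bars are class medians. COX6B2, at 2 counts in all Sc libraries, is left out of the points and of the complex IV medians drawn. The assembly factors lie lowest and complex IV lies around 0.

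The drop was uneven between libraries. Against the mean of the 4 Sc libraries, the median gene stood at -0.31 (log2) in Z1flag Sc replicate 1, and at 0.05, 0.12 and 0.11 in the other Sc libraries. In the Pc libraries it stood at -0.50 and -0.17 in Z1flag and at -0.25 and -0.19 in Z2flag. The subconfluent Z1flag replicate 1 library was thus lower than 3 of the 4 Pc libraries for the median gene, and its high share of reads without a feature moves with that, as it does in Pc replicate 1 of the same line. Leaving out Z1flag Sc replicate 2 moved the Z1flag median to -0.02 and left 4 genes lower and 4 higher. Leaving out Z1flag Sc replicate 1, Z2flag Sc replicate 1 or Z2flag Sc replicate 2 each left 16 lower and 3 higher in Z1flag, and leaving out Z1flag Pc replicate 1 left 17 lower and 8 higher, with a median of -0.05. In Z2flag, leaving out 1 of its own libraries left 10 to 12 lower. Without both Z1flag libraries of replicate 1, 35 genes fell and 7 rose in the mean of both lines. In the mean of both lines 26 to 45 genes fell and 3 to 12 rose when any 1 library was left out, the fewest rises without Z1flag Sc replicate 1 and the most without Z1flag Pc replicate 1.

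**Figure D2:**
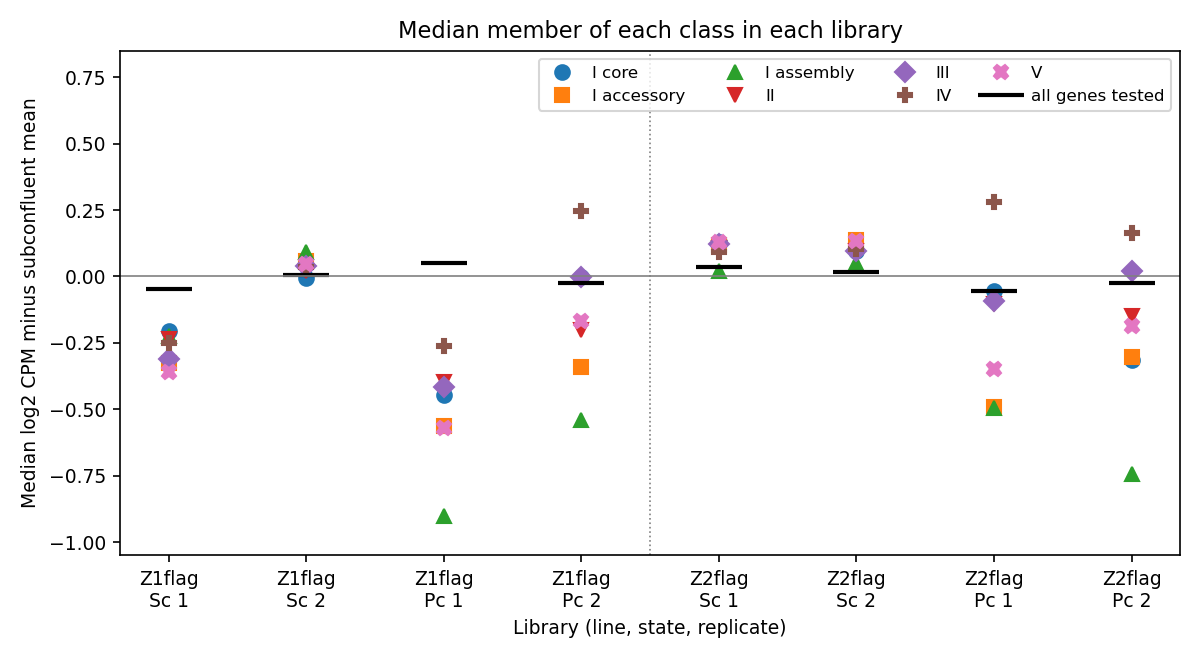
Median over the genes of each class of log2 CPM minus the mean of the 4 Sc libraries (y axis), in each of the 8 libraries (x axis); black dashes show all genes tested. Z1flag Sc replicate 1 and Z1flag Pc replicate 1 are low in every class, and in the other 3 Pc libraries complex IV lies above 0 while the assembly factors lie lowest or within 0.01 of the lowest class.

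Complex I assembly factors guide the building of complex I and are not part of the finished enzyme. All 8 NDUFAF genes had a value below 0 in both lines (median -0.61 in the mean of both lines). In the mean of both lines 6 of the 8 fell, where 32.4% of protein-coding genes fell. Of 13184 protein-coding genes tested, 7109 had a value below 0 in that mean. NDUFAF4 (chr6:96889313-96897881, GRCh38, - strand), which works with NDUFAF3 early in assembly, stood at 20.3 and 26.4 CPM in Sc and 5.14 and 8.01 CPM in Pc of Z1flag, and at 22.7 and 23.9 CPM in Sc and 9.32 and 7.52 CPM in Pc of Z2flag. The highest Pc library, at 9.32 CPM, lay far below the lowest Sc library, at 20.3 CPM. NDUFAF4 fell by 1.83 in Z1flag (SE 0.28, adjusted p = 9.6e-04) and by 1.47 in Z2flag (SE 0.27, adjusted p = 0.0029). NDUFAF1, a factor of the membrane arm intermediate, stood at 11.9 and 16.2 CPM in Sc and 6.20 and 6.79 CPM in Pc of Z1flag, and at 15.9 and 18.6 CPM in Sc and 4.41 and 5.77 CPM in Pc of Z2flag. Its fall was 1.12 on the log2 scale in Z1flag (SE 0.27, adjusted p = 0.0084) and 1.76 in Z2flag (SE 0.27, adjusted p = 0.0012). The 2 changes of NDUFAF1 did not differ past the threshold by the interaction test (adjusted p = 0.799), and the groups of the 2 states did not overlap in either line. NDUFAF8, a partner of the methyltransferase NDUFAF5, stood at 17.3 and 23.7 CPM in Sc and 7.60 and 11.1 CPM in Pc of Z1flag, and at 22.1 and 25.3 CPM in Sc and 8.10 and 9.50 CPM in Pc of Z2flag. NDUFAF8 fell in both lines, by 1.14 in Z1flag (adjusted p = 0.0082) and 1.43 in Z2flag (adjusted p = 0.0032). The call in Z1flag was lost for NDUFAF1 and NDUFAF8 when Sc replicate 2 was left out, with adjusted p-values of 0.080 and 0.081.

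The other assembly factors changed less. NDUFAF6 (-0.53, adjusted p = 0.016), NDUFAF7 (-0.52, adjusted p = 0.012) and NDUFAF2 (-0.68, adjusted p = 0.025) fell in the mean of both lines. NDUFAF5 had a value of -0.34 (adjusted p = 0.055) and NDUFAF3 of -0.28 (adjusted p = 0.17), and neither passed. The call of NDUFAF7 was lost without Z2flag Pc replicate 2 or Z2flag Sc replicate 1 (adjusted p = 0.062 and 0.057). That of NDUFAF6 was lost without Z1flag Sc replicate 1, Z2flag Pc replicate 2 or either Z2flag Sc library (adjusted p of 0.061 to 0.066). NDUFAF2 lost its call without Z1flag Pc replicate 1, Z1flag Sc replicate 2, Z2flag Sc replicate 1 or either Z2flag Pc library (adjusted p of 0.053 to 0.12).

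The accessory subunits of complex I surround its catalytic core. Of 30 tested, 14 fell (46.7%, beside 32.4% of protein-coding genes), none rose, and 24 had values below 0, with a median of -0.43. NDUFB2, a small subunit of the membrane arm, stood at 33.5 and 42.2 CPM in Sc and 13.6 and 19.4 CPM in Pc of Z1flag, and at 45.6 and 47.1 CPM in Sc and 19.0 and 18.2 CPM in Pc of Z2flag. Its Pc levels were all below its Sc levels, and it fell by 1.20 in Z1flag (SE 0.23, adjusted p = 0.0028) and by 1.32 in Z2flag (SE 0.23, adjusted p = 0.0020). Of its exon sequence 1.4% is shared with ADCK2 on the same strand and 35.1% with BRAF and NDUFB2-AS1 on the opposite strand. Of the 91 genes tested, 16 share exons with a coding gene on the same strand and 26 on the opposite strand. Among the 16 are NDUFS3 (19.6% of its exons), UQCR11 (10.9%) and COX6B2 (30.9%). NDUFS6, a zinc-binding subunit of the peripheral arm, stood at 42.8 and 55.8 CPM in Sc and 17.9 and 29.6 CPM in Pc of Z1flag, and at 61.2 and 64.6 CPM in Sc and 25.9 and 25.4 CPM in Pc of Z2flag. Again no Pc library reached an Sc library, and NDUFS6 fell by 1.06 in Z1flag (SE 0.25, adjusted p = 0.0084) and fell by 1.29 in Z2flag (SE 0.25, adjusted p = 0.0036). NDUFB3, another membrane arm subunit, stood at 37.4 and 56.5 CPM in Sc and 24.4 and 26.5 CPM in Pc of Z1flag, and at 54.3 and 56.1 CPM in Sc and 20.6 and 25.4 CPM in Pc of Z2flag. It fell by 0.88 in Z1flag (SE 0.23, adjusted p = 0.013) and by 1.26 in Z2flag (SE 0.23, adjusted p = 0.0028). Without Z1flag Sc replicate 2 the Z1flag calls of NDUFS6 and NDUFB3 were lost, with adjusted p-values of 0.079 and 0.14. Other accessory subunits lay near their subconfluent level, such as NDUFA10, NDUFB5 and NDUFS4, whose values in the mean of both lines were -0.06, -0.03 and 0.01; these 3 were picked after their values were seen. NDUFA7 stood at 0.204 to 0.832 CPM and NDUFA13 at 1.60 to 3.80 CPM over the 8 libraries, and both share exons with a coding gene on the same strand, so that reads can be lost as ambiguous.

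The 7 nuclear-encoded core subunits carry the flavin, the iron-sulfur clusters and the ubiquinone site of complex I. In the mean of both lines 3 of them fell (42.9%, beside 32.4% of protein-coding genes), NDUFS3 and NDUFS1 among these. None rose, and the median was -0.23. NDUFS3 stood at 62.5 and 69.7 CPM in Sc and 31.2 and 41.8 CPM in Pc of Z1flag, and at 78.9 and 78.9 CPM in Sc and 48.0 and 40.7 CPM in Pc of Z2flag. Its states did not overlap, and it fell by 0.86 in Z1flag (SE 0.20, adjusted p = 0.0083) and by 0.83 in Z2flag (SE 0.20, adjusted p = 0.010). NDUFS1, the large iron-sulfur subunit, stood at 279 and 290 CPM in Sc and 208 and 178 CPM in Pc of Z1flag, and at 278 and 287 CPM in Sc and 172 and 195 CPM in Pc of Z2flag. It fell by 0.56 in Z1flag (adjusted p = 0.035) and by 0.62 in Z2flag (adjusted p = 0.024), and by 0.59 in the mean of both lines (adjusted p = 0.0034). That last call held under every alternative run, whereas the Z1flag call was lost without Z1flag Pc replicate 2 or any 1 Sc library (adjusted p of 0.054 to 0.14) and the Z2flag call without any 1 Z2flag library (0.080 to 0.19). For NDUFS3 the Z1flag call was lost without Z1flag Sc replicate 2 (adjusted p = 0.065) and the Z2flag call without Z2flag Pc replicate 2 or either Z2flag Sc library (0.067 to 0.11). NDUFV2, the partner of the flavin subunit, ran the other way with 0.60 (adjusted p = 0.051), which did not pass. It passed as higher in 8 of 17 alternatives, among them DESeq2 (adjusted p = 0.022), the replicate block (0.020), and leaving out Z1flag Pc replicate 2 (0.80, adjusted p = 0.0099) or Z2flag Pc replicate 2 (0.85, adjusted p = 0.011). Its levels in Pc replicate 1 of the 2 lines (32.3 and 38.5 CPM) lay apart from those in Pc replicate 2 (19.5 and 20.1 CPM).

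Complex II, which is also an enzyme of the citric acid cycle, is wholly nuclear-encoded. Its 4 genes had values between -0.41 and -0.06 in the mean of both lines, and only SDHC, a membrane anchor, fell. That is 25.0%, where 32.4% of protein-coding genes fell. SDHC stood at 99.4 and 105 CPM in Sc and 84.4 and 80.8 CPM in Pc of Z1flag, and at 106 and 108 CPM in Sc and 65.9 and 83.4 CPM in Pc of Z2flag, with all Pc levels below all Sc levels. Its change was -0.41 in the mean of both lines (SE 0.13, adjusted p = 0.021), and the call was lost without Z1flag Sc replicate 2, Z2flag Pc replicate 1 or either Z2flag Sc library (adjusted p of 0.069 to 0.11). SDHA, the flavoprotein, went from 182 ± 16.3 CPM in Sc to 149 ± 28.0 CPM in Pc (mean ± SD, n = 4 libraries), a change of -0.29 (adjusted p = 0.13). SDHB, the iron-sulfur subunit, had -0.06 (adjusted p = 0.73) and SDHD, the other anchor, -0.24 (adjusted p = 0.19). With Z1flag Pc replicate 2 left out, SDHA passed, with -0.42 and an adjusted p of 0.0079.

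Complex III changed in some of its subunits. Of its 10 genes 4 fell, where 32.4% of protein-coding genes fell. None rose, and the median was -0.12. The sign of that median was not stable: it was 0.04 without Z1flag Pc replicate 1 and 0.07 under upper-quartile scaling, each with 2 genes higher, and 2 genes fell without Z1flag Sc replicate 2, Z2flag Pc replicate 2 or either Z2flag Sc library. CYC1, the cytochrome c1 that hands electrons to cytochrome c, stood at 90.6 and 108 CPM in Sc and 40.8 and 60.4 CPM in Pc of Z1flag, and at 125 and 123 CPM in Sc and 69.6 and 53.8 CPM in Pc of Z2flag. All Pc levels were below all Sc levels, and CYC1 fell by 0.97 in Z1flag (SE 0.23, adjusted p = 0.0087) and by 1.01 in Z2flag (SE 0.23, adjusted p = 0.0078). UQCR11, a small peripheral subunit, stood at 17.9 and 22.7 CPM in Sc and 11.3 and 13.0 CPM in Pc of Z1flag, and at 25.1 and 23.5 CPM in Sc and 10.6 and 12.3 CPM in Pc of Z2flag. It fell by 0.74 in Z1flag (SE 0.22, adjusted p = 0.025) and by 1.09 in Z2flag (SE 0.23, adjusted p = 0.0048). Without Z1flag Sc replicate 2 the Z1flag change of CYC1 was -0.84 (adjusted p = 0.071), and without Z2flag Pc replicate 2 its Z2flag change was -0.75 (adjusted p = 0.097). The Z1flag call of UQCR11 was lost without Z1flag Pc replicate 1 or any 1 Sc library (adjusted p of 0.050 to 0.18). UQCRFS1, the Rieske iron-sulfur protein, and UQCRQ fell in the mean of both lines, by 0.47 and 0.49 on the log2 scale (adjusted p = 0.021 and 0.015). The calls of UQCRFS1 and UQCRQ were lost without Z1flag Sc replicate 2, Z2flag Pc replicate 2 or either Z2flag Sc library. UQCRQ then had values of -0.50 to -0.38. That of UQCRFS1 was also lost without Z2flag Pc replicate 1. The large core proteins UQCRC1 and UQCRC2 lay at -0.07 and 0.08 and did not pass. UQCRH, the hinge protein, had 0.27 (adjusted p = 0.16, or 0.44 and 0.011 without Z1flag Pc replicate 1), and its intronless copy UQCRHL, whose reads can be confused with it, 0.20 (adjusted p = 0.34). UQCRHL made up 5.29% ± 0.40 of their summed CPM per kb of exon in Sc and 5.10% ± 0.42 in Pc (mean ± SD, n = 4).

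Of the 13 complex IV genes tested, COX7A2L, COX7C and COX6B2 were called higher and none lower in the mean of both lines, with a median of 0.09. The share called higher was 23.1%, where 27.8% of all genes rose. COX6B2 was bound to differ by the way it passed the filter, and without it 2 of 12 rose, with a median of 0.04 in the mean of both lines, -0.02 in Z1flag and 0.06 in Z2flag. Without Z1flag Pc replicate 2 the median was -0.06, with 3 genes higher and 2 lower, and without Z1flag Pc replicate 1 it was 0.31, with 6 higher. COX7A2L, also known as SCAF1, is a relative of COX7A2 that links complex III with complex IV in supercomplexes. It stood at 78.6 and 83.4 CPM in Sc and 185 and 197 CPM in Pc of Z1flag, and at 84.2 and 83.1 CPM in Sc and 180 and 214 CPM in Pc of Z2flag. The lowest Pc library, at 180 CPM, was far above the highest Sc library, at 84.2 CPM, and the rise was 1.24 in Z1flag (SE 0.18, adjusted p = 8.5e-04) and 1.24 in Z2flag (SE 0.18, adjusted p = 9.7e-04). No alternative lost either call. COX7C, a small subunit of the finished enzyme, stood at 174 and 231 CPM in Sc and 297 and 331 CPM in Pc of Z1flag, and at 233 and 232 CPM in Sc and 306 and 352 CPM in Pc of Z2flag, with all Pc levels above all Sc levels. It rose by 0.63 in Z1flag (SE 0.20, adjusted p = 0.032), while its value of 0.50 in Z2flag did not pass (adjusted p = 0.076). In the mean of both lines COX7C rose by 0.57 (adjusted p = 0.0073), and without Z1flag Sc replicate 1 the value was 0.45 (adjusted p = 0.055). Its Z1flag call was lost without Z1flag Sc replicate 1 or either Z2flag Sc library (adjusted p of 0.079 to 0.27), and its Z2flag value passed without either Z1flag Pc library (0.015 and 0.016).

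The tissue-specific isoforms of complex IV were near or at 0. COX6B2, a form of COX6B1 known from testis, had 1 count in Sc and 27 in Pc of Z1flag, and 1 and 24 in Z2flag, so it passed the filter only through the Pc libraries. Scaled by library size, the Pc to Sc ratio of its counts was 39.2, with an exact 95% interval for counting error of 10.3 to 333. Its Z1flag rise lost its call without Z1flag Sc replicate 2 (adjusted p = 0.057). It remained at 0.100% of the summed COX6B1 and COX6B2 CPM per kb of exon in Pc. NDUFA4L2, a hypoxia-responsive relative of the complex IV subunit NDUFA4, had 14 counts in Sc and 7 in Pc, a ratio of 0.769 with an interval of 0.263 to 2.04. The ubiquitous forms did not pass in the mean of both lines: COX4I1 had -0.07, COX6A1 0.35, COX6B1 -0.19, COX7A2 0.23, COX7B -0.01, COX8A 0.09 and NDUFA4 -0.07. Their adjusted p-values lay between 0.11 and 0.96. Without Z1flag Pc replicate 1, COX6A1 (0.55, adjusted p = 0.0074), COX7A2 (0.41, adjusted p = 0.016) and COX8A (0.31, adjusted p = 0.025) passed as higher.

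**Figure D3:**
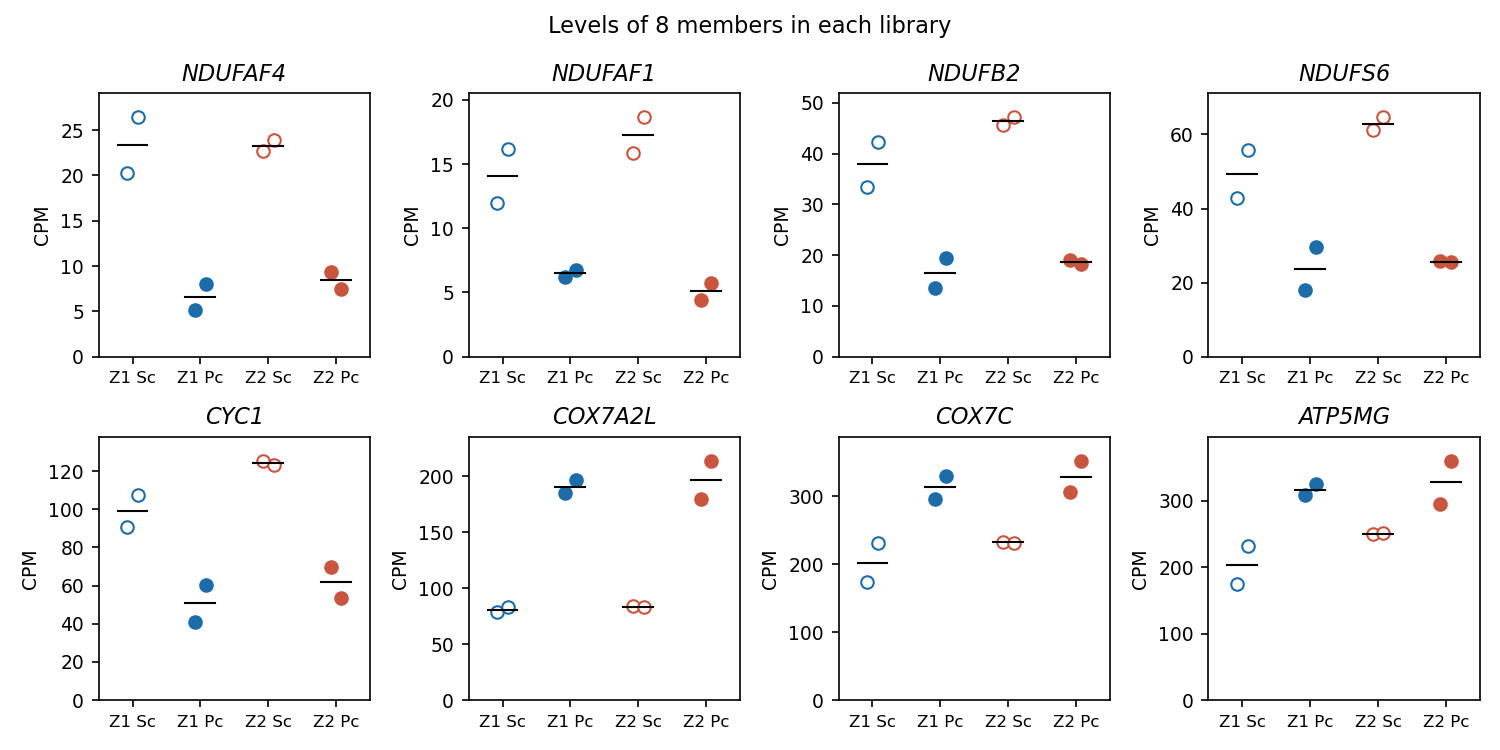
CPM (y axis, from 0) of 8 genes in each library, by line and state (x axis); open points are Sc, filled points Pc, and black bars the means of 2 libraries. NDUFAF4, NDUFAF1, NDUFB2, NDUFS6 and CYC1 are lower in all Pc libraries, and COX7A2L, COX7C and ATP5MG are higher in all Pc libraries.

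ATP synthase showed falls and rises side by side. Of 19 tested genes 7 fell and 2 rose in the mean of both lines, with a median of -0.32. The share that fell, 36.8%, was near the 32.4% of protein-coding genes. ATP5MF, subunit f of the membrane part, stood at 19.4 and 22.8 CPM in Sc and 9.72 and 12.0 CPM in Pc of Z1flag, and at 26.4 and 27.6 CPM in Sc and 8.93 and 10.5 CPM in Pc of Z2flag. Pc levels were all below Sc levels, and ATP5MF fell by 0.96 in Z1flag (SE 0.22, adjusted p = 0.0075) and by 1.47 in Z2flag (SE 0.23, adjusted p = 0.0011). Its exons overlap PTCD1 and the read-through gene ATP5MF-PTCD1 on the same strand. ATP5PB, subunit b of the stalk that holds the catalytic head, stood at 114 and 132 CPM in Sc and 68.3 and 67.2 CPM in Pc of Z1flag, and at 125 and 137 CPM in Sc and 75.4 and 80.7 CPM in Pc of Z2flag. This was a fall of 0.86 in Z1flag (SE 0.18, adjusted p = 0.0044) and of 0.75 in Z2flag (SE 0.18, adjusted p = 0.0090). The catalytic beta subunit ATP5F1B fell by 0.72 in the mean of both lines (adjusted p = 0.0054), and the alpha subunit ATP5F1A had -0.41, with an adjusted p of 0.0503 on the edge of the threshold. ATP5PF and ATP5MK fell as well, by 0.61 and 0.56. ATP5MG, subunit g of the membrane part, stood at 176 and 232 CPM in Sc and 308 and 326 CPM in Pc of Z1flag, and at 250 and 252 CPM in Sc and 295 and 360 CPM in Pc of Z2flag. Its Pc levels all exceeded its Sc levels, and it rose by 0.64 in Z1flag (adjusted p = 0.032) and by 0.51 in the mean of both lines (adjusted p = 0.013); its Z2flag value of 0.39 did not pass (adjusted p = 0.16). Without Z1flag Sc replicate 1 or either Z2flag Sc library ATP5MG lost its call in Z1flag (adjusted p of 0.077 to 0.27) and in the mean of both lines (0.064 to 0.085), and without either Z1flag Pc library it passed in Z2flag (0.041 and 0.045). The Z1flag call of ATP5MF was lost without Z1flag Sc replicate 2 (adjusted p = 0.066), and the Z2flag call of ATP5PB without any 1 Z2flag library (0.053 to 0.10). ATP5IF1, the protein that inhibits the enzyme when it runs backwards, stood at 31.6 and 41.6 CPM in Sc and 43.3 and 49.9 CPM in Pc of Z1flag, and at 42.7 and 41.4 CPM in Sc and 39.5 and 54.3 CPM in Pc of Z2flag. The states overlapped, and its value of 0.25 did not pass (adjusted p = 0.19).

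The 3 genes of subunit c moved apart. ATP5MC1, ATP5MC2 and ATP5MC3 encode the same mature protein, which forms the rotating ring, behind different import sequences. ATP5MC1 (chr17:48892765-48895871, GRCh38, + strand) stood at 69.7 and 93.5 CPM in Sc and 31.8 and 55.1 CPM in Pc of Z1flag, and at 115 and 98.4 CPM in Sc and 53.1 and 55.8 CPM in Pc of Z2flag. ATP5MC3 (chr2:175176258-175184607, - strand) stood at 222 and 276 CPM in Sc and 136 and 192 CPM in Pc of Z1flag, and at 292 and 290 CPM in Sc and 180 and 194 CPM in Pc of Z2flag. Both had all Pc levels below all Sc levels. ATP5MC1 fell by 0.91 in Z1flag (SE 0.27, adjusted p = 0.021) and by 0.97 in Z2flag (SE 0.27, adjusted p = 0.017). ATP5MC3 fell by 0.60 (SE 0.22, adjusted p = 0.048) and by 0.64 (SE 0.22, adjusted p = 0.042), close to the threshold, and by 0.62 in the mean of both lines (adjusted p = 0.0064). The calls of ATP5MC1 and ATP5MC3 in the mean of both lines held under every alternative run. Within Z1flag, ATP5MC1 lost its call without Z1flag Pc replicate 1 or Z1flag Sc replicate 2 (adjusted p = 0.066 and 0.16), and ATP5MC3 without any 1 library but Z1flag Pc replicate 2 (0.072 to 0.27). Within Z2flag, ATP5MC1 lost its call without any 1 Z2flag library (0.053 to 0.13), and ATP5MC3 without any 1 library but the 2 of Z1flag Pc (0.060 to 0.24). ATP5MC2 (chr12:53632726-53677408, - strand) went the other way, at 38.5 and 57.5 CPM in Sc and 119 and 130 CPM in Pc of Z1flag, and at 66.6 and 68.7 CPM in Sc and 83.9 and 134 CPM in Pc of Z2flag. All its Pc levels lay above its Sc levels, although Z2flag Pc replicate 1 was far below the other Pc libraries. ATP5MC2 rose by 1.38 in Z1flag (SE 0.26, adjusted p = 0.0030), and its 0.69 in Z2flag (SE 0.26, adjusted p = 0.060) did not pass. In the mean of both lines its rise was 1.03 (SE 0.19, adjusted p = 0.0010), which every alternative run called. In Z2flag 11 of 18 alternatives called it, among them leaving out Z2flag Pc replicate 1 (1.07, adjusted p = 0.024) or either Z1flag Pc library (0.77 and 0.78). The change did not differ between lines by the interaction test (adjusted p = 0.80).

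Within a library, scaling cancels from the shares of the 3 genes. Per kb of exon, ATP5MC2 made up 14.0%, 15.9%, 16.1% and 17.6% of their summed CPM in the Sc libraries and 48.0%, 39.9%, 31.0% and 40.2% in the Pc libraries. The states did not overlap. On the mean it went from 15.9% ± 1.51 to 39.8% ± 6.98 (SD, n = 4), while ATP5MC1 went from 39.7% ± 1.81 to 25.2% ± 4.22 and ATP5MC3 from 44.4% ± 2.46 to 35.1% ± 2.88. Exon length was taken over all annotated transcripts of each gene, so the shares depend on which of them are used. The summed CPM per kb was 69.1, 90.9, 104 and 97.6 in Sc and 62.0, 82.1, 67.9 and 83.6 in Pc, values that overlap between the states. Pseudogenes named after ATP5MC1 (8) and ATP5MC2 (5) can take reads from them.

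**Figure D4:**
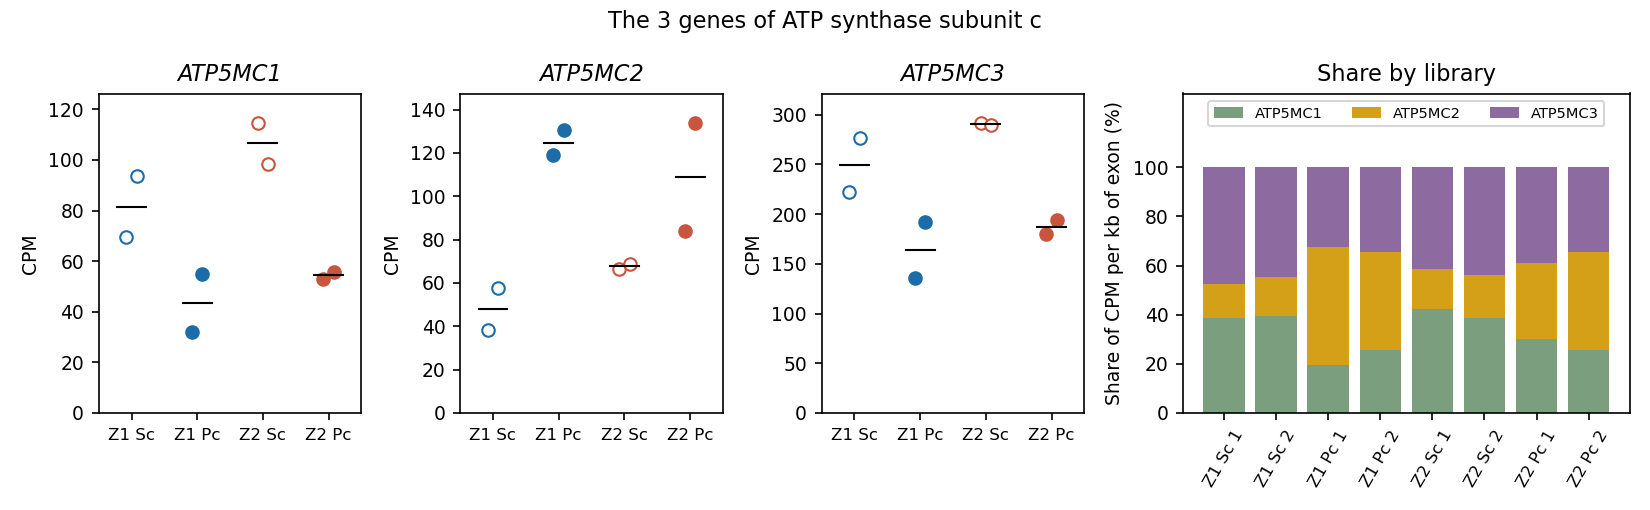
CPM of ATP5MC1, ATP5MC2 and ATP5MC3 in each library (left, open points Sc, filled points Pc, bars the means of 2 libraries) and the share of each gene in their summed CPM per kb of exon by library (right, in percent). The ATP5MC2 share is 14.0% to 17.6% in the Sc libraries and 31.0% to 48.0% in the Pc libraries.

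Sequence at the start sites, which the choice by symbol did not use, was set beside the direction of change. RefSeq promoter windows (GRCh38.p14, 250 bases before and 50 after the start) matched 78 of the 99 genes, and the first start listed per gene was used. Shown are the 40 bases before and the first 10 of the transcript, 5′ to 3′, with the first 5 transcribed bases in capitals. They are given for the 4 matched genes that rose at more than 1 CPM and for 4 that fell, picked after their values were seen and not the 4 largest falls.
ATP5MC2, rose (chr12:53676074-53676123, - strand): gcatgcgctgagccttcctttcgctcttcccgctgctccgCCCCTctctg
ATP5MG, rose (chr11:118401566-118401615, + strand): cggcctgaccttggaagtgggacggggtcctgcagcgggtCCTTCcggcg
COX7A2L, rose (chr2:42361208-42361257, - strand): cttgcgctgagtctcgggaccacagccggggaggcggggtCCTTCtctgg
COX7C, rose (chr5:86617901-86617950, + strand): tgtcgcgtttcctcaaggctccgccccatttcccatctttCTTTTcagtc
ATP5MC1, fell (chr17:48892747-48892796, + strand): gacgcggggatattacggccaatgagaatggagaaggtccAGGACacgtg
NDUFAF4, fell (chr6:96897882-96897931, - strand): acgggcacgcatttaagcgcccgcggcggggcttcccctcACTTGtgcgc
NDUFB2, fell (chr7:140696668-140696717, + strand): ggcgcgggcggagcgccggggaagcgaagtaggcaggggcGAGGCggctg
NDUFS6, fell (chr5:1801367-1801416, + strand): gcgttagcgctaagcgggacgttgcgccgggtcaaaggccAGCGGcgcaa
The 4 upper sequences begin with C followed by 4 pyrimidines, the start known from 5′ terminal oligopyrimidine mRNAs such as those of ribosomal proteins, and the 4 lower ones do not. This pattern was searched for after these sequences and the direction of the changes had been seen. It stood at the first listed start of 4 of the 5 matched genes that rose (COX6B2, called by way of the filter as said above, lacked it), of 1 of 26 that fell (NDUFC1) and of 4 of 43 without a call (COX4I1, UQCRH, ATP5F1E and ATP5PO). Among all 27305 windows 4.0% held it, beside 5.3% for protein-coding genes tested and 12.2% for the 74 matched genes that were tested. Of 562 protein-coding genes tested that began this way, 227 rose (40.4%) and 113 fell (20.1%), with a median of 0.22, against 25.3% and 33.9% and a median of -0.14 for 10118 genes with another start. Without ribosomal protein genes the 519 left had 35.8% higher and 21.6% lower. Whether the start bases have a part in the changes was not tested, and the pattern is a match of letters in 1 annotated start per gene.

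Other letters found in these windows were those of factors known from respiratory chain promoters. On either strand, GCGCA and GCGC set 1 base apart (the NRF1 motif) stood in 23.1% of the 78 windows against 6.3% of all windows and 11.3% of those of protein-coding genes tested. CCGGAAG (ETS family, as bound by GABPA) stood in 26.9% against 10.7% and 18.5%, and AANATGGCG (YY1) in 20.5% against 3.4% and 6.7%. CAAGGTCA (estrogen-related receptor) stood in 5.1% against 1.3% and 0.9%. CCAAT stood in 35.9%, 35.7% and 36.7%. Set by direction, genes that fell and genes without a call held the NRF1 motif in 5 of 26 and 12 of 43, CCGGAAG in 7 of 26 and 13 of 43, and AANATGGCG in 7 of 26 and 9 of 43. Among the 5 that rose, they stood in 0, 1 and 0 windows.

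The 2 tagged lines were then compared. No gene of the 91 differed in its change between the lines by the edgeR interaction test (smallest adjusted p = 0.799), and none had an unadjusted p under 0.05, where 902 of 18240 genes did. Across the 91 genes the changes in the 2 lines had a Pearson correlation of 0.92, given as a description over genes whose values share libraries within each line. Across all genes it was 0.85. The 91 include COX6B2, at 4.55 in Z1flag and 5.29 in Z2flag, which was bound to differ and weighs heavily on the 0.92. No correlation without COX6B2 was computed, so the 2 values cannot be ranked. In Sc no gene differed between Z2flag and Z1flag, also at an unadjusted p under 0.05 (195 of 18240 genes), and in Pc none passed the adjusted threshold while 2 had an unadjusted p under 0.05 (1308 of 18240 genes). DESeq2 and limma voom also called 0 in all 3 comparisons. The median of Z2flag over Z1flag was 0.23 in Sc and 0.14 in Pc. In Sc 83 of 91 values were above 0, which moves with the low level of Z1flag Sc replicate 1 given above. For protein-coding genes with no more than 4048 bases of exon the medians were 0.12 and 0.05, with 1397 of 4867 below 0 in Sc. For all genes tested they were 0.044 and -0.015, with 7927 of 18240 below 0 in Sc. Without Z1flag Pc replicate 2, 10 genes were called higher in Z2flag than in Z1flag in Pc. A p above the threshold does not show that the lines are alike.

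Other genes of the pathway were described by lists, to be set beside the 27.5% of all genes and 32.4% of protein-coding genes that fell. Of all genes 27.8% rose. Beyond the NDUFAF family, 53 assembly factors of complexes I to V held 23 that fell (43.4%) and 6 that rose in the mean of both lines, with a median of -0.31. BCS1L, which inserts the Rieske protein into complex III, fell from 41.7 ± 3.31 CPM in Sc to 10.2 ± 0.43 CPM in Pc (mean ± SD, n = 4), a log2 change of -2.04 (adjusted p = 7.6e-06). COA7 and TMEM126B, factors of complexes IV and I, fell by 1.57 and 1.31. OXA1L, which inserts proteins into the inner membrane, rose by 1.50 (adjusted p = 3.4e-05), from 87.3 ± 13.0 to 246 ± 23.9 CPM, HIGD2A by 0.95 and COX19 by 0.83. Among 21 genes of electron carriers, 10 fell (47.6%) and 3 rose, with a median of -0.21. The ubiquinone synthesis genes PDSS1 and COQ2 fell by 1.81 and 1.43, and DHODH, a dehydrogenase that feeds ubiquinone, by 1.76, while SQOR, COQ10A and COQ8A rose by 1.20, 1.00 and 0.84. CYCS, cytochrome c itself, fell by 0.54 in the mean of both lines (adjusted p = 0.028). The interaction of CYCS did not pass (adjusted p = 0.799).

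Most genes that copy and transcribe mitochondrial DNA fell. Of 13 tested, 9 fell and none rose, with a median of -0.90, beside 27.5% of all genes lower. TFAM, which packages and transcribes mitochondrial DNA, went from 362 ± 8.98 to 170 ± 31.2 CPM, a fall of 1.09 on the log2 scale (adjusted p = 1.8e-04). The helicase TWNK fell by 1.52 and the single-strand binding protein SSBP1 by 0.99. Of 17 genes of pyruvate dehydrogenase and the citric acid cycle 10 fell (58.8%) and 2 rose (median -0.54). The falls were led by DLAT, OGDH and DLD at -1.44, -1.15 and -1.07, and the rises were SUCLG2 and DLST at 1.02 and 0.59. Among 17 genes listed for mitochondrial mass and import, some of them of the inner membrane or matrix, 10 fell (58.8%) and 4 rose (median -0.65). TOMM40, the import pore, fell by 1.87 and PHB1 by 1.69, while the receptor TOMM20 rose by 1.40, from 337 ± 12.9 to 894 ± 90.8 CPM. The ADP/ATP carriers SLC25A6 and SLC25A5 rose by 3.38 and 0.86. Of 10 genes of cristae shape 5 fell and none rose (median -0.47), among them CHCHD3 by 1.09, MICOS13 by 0.71 and CHCHD6 by 0.69.

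Among 13 tested regulators of respiratory genes 6 fell (46.2%, beside 32.4% of protein-coding genes) and 3 rose, with a median of -0.18. NRF1, GABPA and ESRRA, named for the control of these genes, had -0.05, -0.18 and -0.10 and did not pass (adjusted p = 0.82, 0.52 and 0.60). PPARGC1B, a coactivator, fell from 53.8 ± 5.79 to 32.2 ± 2.07 CPM, by 0.74 on the log2 scale (adjusted p = 0.0012). ESRRG fell by 2.48 and GABPB2 by 0.93. PPARA rose by 1.41, YY1 by 0.46 and PERM1 by 3.37, from 0.0735 ± 0.014 to 0.797 ± 0.288 CPM. Like COX6B2, PERM1 passed the filter only through the Pc libraries and so had to differ, though it counts among the 3 rises. PPARGC1A, with 2 counts in all 8 libraries, was not tested. In Pc the level of PPARA varied widely, at 119 ± 49.3 CPM (n = 4).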

How the data were processed

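RNA was sequenced from 8 libraries, 2 in each of 4 groups; per the labels' protocols the libraries were strand-specific, depleted of ribosomal RNA and paired-end. The authors deposited raw counts per Ensembl gene ID, made with STAR 2.5.2b, SAMtools and HTSeq on hg38, per the submitters' processing notes; which annotation, counting mode or strand option HTSeq ran with is not stated in them. If strand was not used, reads of overlapping antisense genes cannot be told apart. The rows for unassigned reads, 5 classes per library, were left out of library sizes. A symbol was found for 57532 of 58302 IDs, and gene structure came from GENCODE v29 (GRCh38).

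Counts were fitted with edgeR 4.0.16 (R 4.3.3): TMM scaling, the filterByExpr filter (minimum count 10, minimum total 15), a robust quasi-likelihood model with 1 mean per group (4 residual degrees of freedom), and Benjamini-Hochberg adjustment at 0.05 over all genes tested. CPM used TMM-scaled library sizes. As alternatives, DESeq2 1.42.0, limma 3.58.1 voom, other scalings (RLE, upper quartile), other filters, a replicate block and left-out libraries were run. Tables and plots used Python 3.11.15.

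The rule by symbol and the lists were chosen with earlier results of these data known. Named with values were, per class, up to 3 genes per direction with the smallest adjusted p in the mean of both lines among those called with a mean of at least 1 CPM. Also named were isoform pairs, all SDH and NDUFAF genes, CYC1, ATP5IF1 and, per line, the 3 largest rises and falls. In the further lists up to 3 genes per direction were named. NRF1, GABPA, ESRRA, CYCS and members without a call outside these rules were named after their values were seen. COX4I2, COX6A2, COX7A1, COX7B2 and COX8C, with under 10 counts, are given by count only. The values of 1 gene are not reported here.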

Additional observations from a re-analysis of the deposited data

How the results depend on the processing

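No named change with a call turned its sign, whereas 20 of 120 named changes, 0 of them called with the settings as described, had values on both sides of 0. Class medians within Z1flag turned too: for the complex I core from -0.14 to 0.08 under upper-quartile scaling, 0.14 without Z1flag Pc replicate 1 and 0.07 without Z1flag Sc replicate 2, and for complex V from -0.21 to 0.07 without Z1flag Sc replicate 2, with 2 genes higher and 1 lower in place of 2 and 6. That of complex III (-0.06) took values of 0.003 to 0.16 in 5 alternatives. That of complex IV turned from 0.06 to -0.22 without Z1flag Pc replicate 2 and -0.14 without Z1flag Sc replicate 1, and in Z2flag from 0.10 to -0.004 with no filter on low counts. Within Z1flag, 30 genes were called with all settings as described, 16 with only the libraries compared and 19 under upper-quartile scaling; 13 fell under each of these 2, and 3 rose with only those libraries, with no filter on low counts, or without both replicate 1 libraries. Leaving out 1 library gave 8 to 39 calls there, 4 to 34 lower and 3 to 8 higher. Within Z2flag the 2 rises became 4 with DESeq2 or upper-quartile scaling and 7 with only the libraries compared or without both Z1flag replicate 1 libraries; leaving out 1 library gave 13 to 36 calls, 10 to 29 lower and 2 to 7 higher. In the mean of both lines the 5 rises became 8 with a filter of 5 CPM in 2 libraries and 11 under upper-quartile scaling, and leaving out 1 library gave 3 to 12 higher, 26 to 45 lower and 30 to 52 in all. Between the lines in Pc, leaving out 1 library gave 0 to 10 calls, all 10 higher. The Z2flag median of -0.33 became -0.23 with the 5 CPM filter, -0.27 with DESeq2, RLE scaling, only the libraries compared or genes sharing no coding exon, -0.28 without both Z1flag replicate 1 libraries and -0.17 under upper-quartile scaling, with -0.38 to -0.22 on leaving out 1 library. The Z1flag median of -0.23 became -0.02 under upper-quartile scaling, -0.13 with the 5 CPM filter and -0.19 with only the libraries compared, and ran from -0.43 to -0.02 on leaving out 1 library. Among single named genes, 151 results lost and 56 gained a call out of all alternatives, and 1910 stayed on their side of the threshold, called or not. The causes of these shifts were not tested. Where 1 library was left out, its group held 1 library, assumed to vary like the others.

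Over all genes tested, the deviations of same-numbered libraries from their group means correlated between groups with r of -0.18 to 0.18. Such values cannot show whether a number marks 1 experiment across groups. With the replicate block 28 genes were called in Z1flag (5 higher, 23 lower), 28 in Z2flag (3 and 25) and 44 in the mean of both lines (6 and 38), and 0 in the interaction and between the lines; the medians were -0.24 and -0.34. A crossed replicate block of the 4 Pc libraries, added after seeing the data, called 0 genes between the lines. With 2 libraries a group, small changes and changes of genes at few counts had wide errors.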
